A study of Mus musculus with 12 samples.

Results

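The genes described here are 9 components and targets of the Nodal and bone morphogenetic protein (BMP) pathways, namely Nodal, Lefty1, Lefty2, Smad7, Bmp4, Id1, Id2, Id3 and Bambi. They were chosen by gene name, and 12 of the 41174 probes on the array carried these names, so that the group made up 9 of 27670 named genes. Id1, Id2 and Bambi each had 2 probes and the other genes 1. All 9 genes were tested in both knockdowns. On every array 11 of these probes were well above background, and the second Bambi probe (A_52_P634995) was so on none, so that Bambi rested on its other probe.

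RNA came from E14 cells, a mouse embryonic stem (ES) cell line, after 72 hr with esiRNA (a pool of short RNAs cut enzymatically from a long double strand) at 0.33 ng/µl and Lipofectamine. The p400 knockdown group targeted Ep400, the SWI/SNF-type ATPase of the Tip60-p400 chromatin complex, and was read on 4 competitive arrays with the dyes swapped, each against EGFP control RNA. The Tip60 knockdown group targeted Kat5, the acetyltransferase of the same complex, on single-colour arrays (replicates 1, 2 and 4 in the comparison, with replicate 3 left out by the submitters), and the EGFP control group, treated with esiRNA against a gene these cells lack, had 4 single-colour arrays. Each sample was a well of 1 cell line, the RNA is bulk, and the labels do not give the medium or say whether it held serum, BMP or feeder cells. In bulk RNA, fewer cells of a type and less RNA per cell cannot be told apart.

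Nodal is a secreted ligand of the TGF-β superfamily that signals through activin receptors to Smad2 and Smad3, and its own targets include the secreted Nodal antagonists Lefty1 and Lefty2. BMP4 signals through BMP receptors to Smad1 and Smad5, whose best-known direct targets are the Id genes. Id proteins are helix-loop-helix proteins with no DNA-binding domain that hold E proteins away from DNA, and in mouse ES cells BMP and Id genes are known for restraining neural differentiation.

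The oligonucleotides of 3 probes are printed first, because Id3 and Id2 are target genes on which the comparison turns and Bmp4 is the ligand upstream of them. The Id2 calls below rest on another probe (A_52_P240542), and the values of the printed Id2 probe are given beside them. The sequences are those of the array files, in lower case throughout. The Id3 probe (A_51_P380178) and the Id2 probe shown (A_51_P219074) cover 175 and 348 bases of the genome with 60 bases each, and so each joins sequence from separate genomic blocks. On build mm7 the Id3 probe lies at chr4:135522597-135522771 on the plus strand, the Id2 probe at chr12:22931820-22932167 on the minus strand, and the Bmp4 probe (A_51_P383741) at chr14:41704207-41704266 on the minus strand.
Id3 probe: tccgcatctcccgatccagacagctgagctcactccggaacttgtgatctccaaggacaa
Id2 probe: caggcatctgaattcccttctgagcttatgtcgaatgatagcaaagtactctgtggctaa
Bmp4 probe: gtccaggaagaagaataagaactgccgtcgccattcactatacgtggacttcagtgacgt

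Promoters are shown for Id3, Id2 and Nodal, which were all higher after p400 knockdown and are targets or the ligand of the 2 pathways. RefSeq windows on GRCm38.p6, from 250 bases before to 50 bases after the start of the gene, matched 4 of the 7 genes looked up, Bmp4 being the other. The windows are Id3 at chr4:136143572-136143871 on the plus strand, Id2 at chr12:25096043-25096342 on the minus strand and Nodal at chr10:61417722-61418021 on the plus strand. Capitals mark exact matches, on either strand, to GGCGCC (a GC-rich element bound by Smad1 and Smad5), CAGAC (the Smad half-site) and CCAAT (the CCAAT box), and none of the matches overlap.
Id3 promoter: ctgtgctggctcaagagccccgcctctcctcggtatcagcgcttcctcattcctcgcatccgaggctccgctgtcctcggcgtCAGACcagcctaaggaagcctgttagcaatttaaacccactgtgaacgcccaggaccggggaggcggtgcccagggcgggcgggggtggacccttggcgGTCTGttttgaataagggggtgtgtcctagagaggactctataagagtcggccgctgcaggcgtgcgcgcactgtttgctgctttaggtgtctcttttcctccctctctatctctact
Id2 promoter: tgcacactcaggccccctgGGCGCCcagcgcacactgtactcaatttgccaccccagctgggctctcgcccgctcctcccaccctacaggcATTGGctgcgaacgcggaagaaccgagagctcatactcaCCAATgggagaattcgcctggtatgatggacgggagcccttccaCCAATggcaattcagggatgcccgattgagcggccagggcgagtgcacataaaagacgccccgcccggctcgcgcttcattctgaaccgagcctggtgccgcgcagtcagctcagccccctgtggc
Nodal promoter: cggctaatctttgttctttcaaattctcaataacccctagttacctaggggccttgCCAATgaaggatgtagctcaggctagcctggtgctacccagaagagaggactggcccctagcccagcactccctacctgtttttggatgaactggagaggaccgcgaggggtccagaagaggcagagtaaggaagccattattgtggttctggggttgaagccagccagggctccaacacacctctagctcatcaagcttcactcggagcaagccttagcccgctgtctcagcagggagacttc
The Id3 window held 2 Smad half-sites, with their first bases at -167 and -68 from the start, a motif found in 49.6% of all 32851 promoter windows. The Id2 window held 1 GGCGCC at -231, a motif found in 11.9% of windows. It also held 3 CCAAT boxes at -159, -120 and -76, a motif found in 37.4%. Each of these shares counts windows with at least 1 match on either strand, and shares with more matches were not computed. The Nodal window held a single CCAAT box at -194. The Foxh1 motif TGTGGATT, searched on both strands and present in 0.855% of windows, matched in none of the 4 windows, and the Bmp4 window held none of these 4 motifs.

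The labels were checked on the targeted genes. Ep400 had log2 ratios of -0.65, -0.77, -0.24 and -0.67 on the 4 p400 arrays, a mean of -0.58 (adjusted p = 0.00556, limma), the smallest fall being on replicate 3. Kat5, the target of the other knockdown, was lower on these arrays too, with ratios of -0.28, -0.41, -0.27 and -0.76 and a mean of -0.43 (adjusted p = 0.0109, limma). In the Tip60 comparison Kat5 stood at -0.19, -0.30 and -0.27 in Tip60 replicates 1, 2 and 4, against 1.16, 1.15, 1.22 and 1.39 in the EGFP arrays, a log2 fold change of -1.49 (adjusted p = 1.36e-05, limma). Between 22188 and 30752 of 43379 spots per array or channel were well above background, the lowest being Tip60 replicate 3. ES cell markers remained well above background on all arrays, with 3 of 8 lower after p400 knockdown and 2 of 8 lower after Tip60 knockdown, against 15.0% and 10.3% of all genes. Of the 3, Dppa5a had ratios of 0.37, -1.25, 0.23 and -0.92. It lay above zero on the arrays with p400 RNA in Cy5 and below zero on those with it in Cy3.

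Knockdown of p400 raised Nodal, all 3 Id genes and Bambi and lowered Lefty1, Lefty2 and Smad7. Of the 9 genes, 5 were higher and 3 lower at an adjusted p under 0.05, while 35.2% of all 18691 genes tested passed, 20.1% higher and 15.0% lower. The median log2 fold change was 0.71 over the 9 genes and 0.01 over all genes. The sign was the same on all 4 arrays for 8 of the 9 genes, as it was for 53.0% of all genes. After scaling the arrays to a common spread only Lefty1, Id2 and Bambi of the 9 passed, the adjusted p of the other 5 called genes lying between 0.0533 and 0.124. Median centring in place of loess kept all 8 calls but put Nodal at 0.41, Bambi at 0.42, Lefty1 at -0.83 and Lefty2 at -0.53, with the median of all genes at -0.11. In this comparison each value is a log2 ratio of p400 knockdown over EGFP after loess normalization, given for replicates 1 to 4, and each adjusted p is from limma with Benjamini-Hochberg adjustment over all genes.

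Nodal, the ligand, had log2 ratios of 0.60, 0.78, 0.80 and 0.74 on the p400 arrays. All 4 arrays lay close together above zero. The mean was 0.73 ± 0.09 (SD, n = 4), a 1.66-fold rise (adjusted p = 0.00172, limma). Its probe lies at chr10:60942629-60942688 of mm7, plus strand.

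The feedback inhibitors of the Nodal pathway moved the other way. Lefty1, a secreted antagonist that keeps Nodal from its receptors, had ratios of -0.55, -0.54, -0.56 and -0.39. Every array was below zero, with replicates 1 to 3 nearly equal and replicate 4 nearer zero, and the mean of -0.51 ± 0.08 (SD, n = 4) was a 1.43-fold fall (adjusted p = 0.00377, limma). Lefty2, its neighbour on chromosome 1 with the same role, had ratios of -0.26, -0.33, -0.21 and -0.15. These too were all below zero, but the fall was small, at -0.24 ± 0.08 (SD, n = 4; adjusted p = 0.0399, limma), and the call was lost when any 1 of the 4 arrays was left out, with adjusted p from 0.0791 without replicate 4 to 0.229 without replicate 2 (0.100 without replicate 1 and 0.0826 without replicate 3).
The probes of Lefty1 (chr1:180917655-180917714) and Lefty2 (chr1:180877495-180877554, both mm7, plus strand) share no run longer than 7 bases, and at most 20 of 60 bases matched in any ungapped alignment.

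Smad7, an inhibitory Smad that blocks receptor signalling in both pathways, had ratios of -0.23, -0.62, -1.22 and -1.09. The direction was the same on each array, but replicate 1 fell far less than replicates 3 and 4. The mean was -0.79 ± 0.46 (SD, n = 4), a 1.73-fold fall (adjusted p = 0.0166, limma), and without replicate 4 the adjusted p was 0.0511 at a log2 fold change of -0.67.

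Bmp4, the ligand of the BMP branch, had ratios of 0.44, 0.09, -0.04 and 0.31, so that replicate 3 lay just below zero and the others above it. The mean of 0.20 ± 0.22 (SD, n = 4) did not pass the test (adjusted p = 0.162, limma; 95% confidence interval -0.04 to 0.44), and it was 0.08 without replicate 1 (adjusted p = 0.518, limma) and 0.32 without replicate 3 (adjusted p = 0.0499, limma).

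The Id genes gave the 3 highest log2 ratios of the group. Id3 had ratios of 2.28, 1.92, 2.29 and 1.93. No array was near zero, and the 2 arrays that carried p400 RNA in Cy5 (replicates 1 and 3) lay above the 2 that carried it in Cy3. The mean of 2.11 ± 0.21 (SD, n = 4) was a 4.31-fold rise (adjusted p = 0.000199, limma). Id1, read by probe A_51_P385786 (chr2:152478157-152478216, mm7, plus strand), had ratios of 1.86, 1.66, 1.36 and 1.70. Each array showed a rise, and the mean of 1.64 ± 0.21 (SD, n = 4) was a 3.12-fold rise (adjusted p = 0.000472, limma). A further Id1 probe, A_52_P533809, which shares 50 of its 60 bases with the first and so is no independent measurement, gave 1.62.
Id2, read by probe A_52_P240542 (chr12:22930541-22930600, mm7, minus strand), had ratios of 0.94, 1.18, 0.84 and 0.58. All 4 were above zero, replicate 4 being the lowest, and the mean of 0.88 ± 0.25 (SD, n = 4) was a 1.85-fold rise (adjusted p = 0.00315, limma). The Id2 probe printed above, which lies elsewhere in the transcript, gave 0.75, 0.99, 1.22 and 0.62, a mean of 0.90.

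Bambi, a transmembrane pseudoreceptor with no kinase domain that dampens BMP and TGF-β signalling, had ratios of 0.66, 0.76, 0.91 and 0.49. All arrays were above zero, and the mean of 0.71 ± 0.18 (SD, n = 4) was a 1.63-fold rise (adjusted p = 0.00277, limma). The inhibitors in the group therefore split, with Bambi higher and Lefty1, Lefty2 and Smad7 lower.

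**Figure D1:**
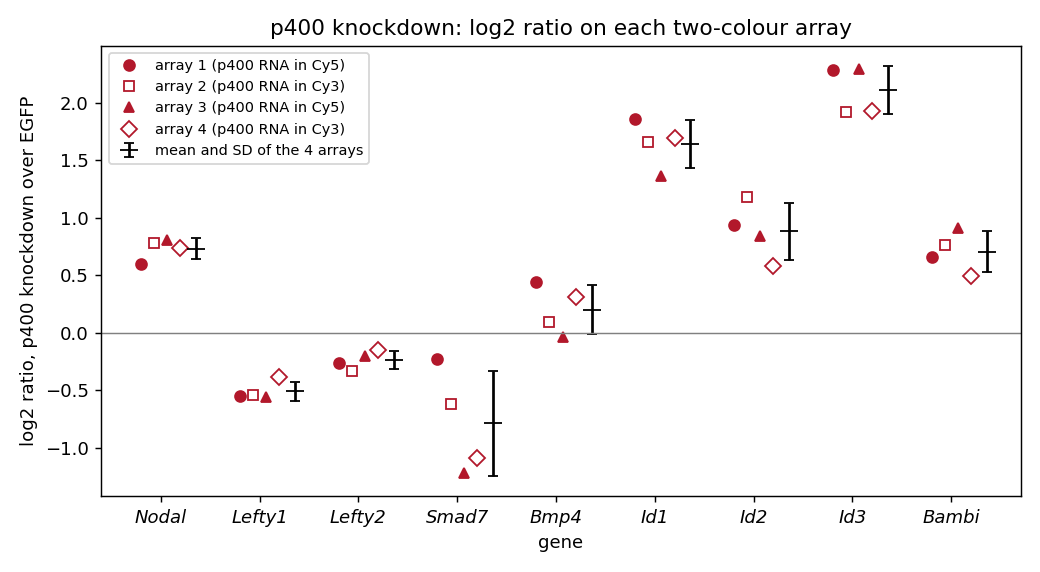
Log2 ratio of p400 knockdown over EGFP (vertical axis) for each of the 9 genes (horizontal axis) on each of the 4 arrays, with filled symbols for p400 RNA in Cy5, open symbols for Cy3, and the mean with its SD in black. Id1 and Id3 lie above 1.3 on every array, Lefty1, Lefty2 and Smad7 lie below zero on every array, and only Bmp4 has arrays on both sides of zero.

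Tip60 knockdown raised Id3 and, by less, Id1 and Bmp4, and lowered Lefty1. These 3 higher and 1 lower calls among 9 genes stood beside 25.6% of all 16949 genes tested, 15.3% higher and 10.3% lower. The median log2 fold change was 0.16 over the 9 genes and 0.01 over all genes. Values here are log2 levels relative to the 75th percentile of the array, and adjusted p-values are again from limma over all genes. The groups did not overlap for Lefty1, Smad7, Bmp4, Id1, Id2 and Id3, which is also true of 36.5% of all genes.

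Id3 had log2 levels of 2.32, 2.70 and 2.46 in Tip60 replicates 1, 2 and 4, against 1.40, 1.49, 1.57 and 1.48 in EGFP replicates 1 to 4. The lowest Tip60 array lay well above the highest EGFP array. Id3 averaged 2.49 ± 0.20 (SD, n = 3) in Tip60 knockdown and 1.48 ± 0.07 (SD, n = 4) in EGFP, a 2.01-fold rise (adjusted p = 0.000369, limma). Id1, on its brighter probe A_52_P533809 (chr2:152478167-152478226, mm7, plus strand), had levels of 2.94, 3.08 and 3.16 in Tip60 knockdown, against 2.68, 2.75, 2.69 and 2.58 in EGFP. The groups were apart by less than for Id3, and the log2 fold change was 0.38 ± 0.07 (SE), or 1.30-fold (adjusted p = 0.00774, limma).
Id2 had levels of 1.72, 1.68 and 1.82 in Tip60 knockdown, against 1.58, 1.67, 1.57 and 1.49 in EGFP. Tip60 replicate 2 and EGFP replicate 2 all but touched, and the log2 fold change of 0.16 did not pass (adjusted p = 0.106, limma; 95% confidence interval 0.01 to 0.31). On the Id2 probe printed above the groups overlapped, with 0.78, 0.73 and 0.84 in Tip60 knockdown against 0.54, 0.90, 0.38 and 0.67 in EGFP.

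Bmp4 had levels of 0.62, 0.68 and 0.77 in Tip60 knockdown, against 0.54, 0.40, 0.42 and 0.52 in EGFP. Every Tip60 array was higher than every EGFP array, and the log2 fold change of 0.22 ± 0.06 (SE) passed by little (adjusted p = 0.0427, limma). Leaving out any 1 of the 7 arrays ended this call, with adjusted p of 0.0560, 0.0916 and 0.135 without Tip60 replicates 1, 2 and 4, and 0.0561, 0.0932, 0.0985 and 0.0632 without EGFP replicates 1 to 4.

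Lefty1 had levels of 4.42, 4.58 and 4.48 in Tip60 knockdown, against 4.77, 4.65, 4.75 and 4.68 in EGFP. All Tip60 arrays were lower than all EGFP arrays, and the log2 fold change was -0.22 ± 0.06 (SE; adjusted p = 0.0343, limma). The call was lost without Tip60 replicate 1 (adjusted p = 0.113) or 4 (0.0997) and without EGFP replicate 1 (0.0857), 3 (0.0821) or 4 (0.0610), all by limma.

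Smad7 had levels of 0.16, 0.02 and -0.05 in Tip60 knockdown, against 0.22, 0.38, 0.18 and 0.35 in EGFP. The groups were apart by little, and the log2 fold change of -0.24 missed the threshold (adjusted p = 0.0611, limma) while it passed with the slide as a block (-0.21, adjusted p = 0.0177), without Tip60 replicate 1 (-0.30, adjusted p = 0.0497) and with Tip60 replicate 3 included (-0.23, adjusted p = 0.0457). Nodal had levels of 3.65, 3.88 and 3.77 in Tip60 knockdown, against 3.60, 3.48, 3.67 and 3.63 in EGFP. Tip60 replicate 1 lay within the EGFP range, and the log2 fold change of 0.17 did not pass (adjusted p = 0.151, limma; 95% confidence interval -0.01 to 0.35).
Lefty2 had levels of 2.09, 2.22 and 2.21 in Tip60 knockdown, against 2.13, 2.14, 2.17 and 2.16 in EGFP, so that the Tip60 arrays lay on both sides of the EGFP arrays. The log2 fold change of 0.02 had a 95% confidence interval of -0.10 to 0.15 (adjusted p = 0.785, limma). Bambi had levels of 1.85, 1.71 and 1.89 in Tip60 knockdown, against 1.68, 1.69, 1.61 and 1.71 in EGFP. Tip60 replicate 2 fell inside the EGFP range, and the log2 fold change of 0.14 did not pass (adjusted p = 0.136, limma; 95% confidence interval -0.00 to 0.29).

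Both slides that carried the single-colour arrays held both groups, so each difference could be read within a slide. On slide 2 (Tip60 replicates 2 and 4 against EGFP 1 and 3), Id3 differed by 1.10 and Id1 by 0.43, while on slide 3 (Tip60 replicate 1 against EGFP 2 and 4) Id3 differed by 0.84 and Id1 by 0.27. Bmp4 differed by 0.24 and 0.16 on slides 2 and 3, Lefty1 by -0.23 and -0.24, and Smad7 by -0.21 and -0.21. Nodal differed by 0.19 and 0.09, Id2 by 0.17 and 0.14, and Bambi by 0.15 and 0.15, so that of the 9 genes only Lefty2 (0.06 and -0.06) changed direction between slides. With slide as a block, Bmp4 gave 0.21 with an adjusted p of 0.0503 by limma, and the calls of Id1, Id3 and Lefty1 held. All 4 p400 arrays were on 1 slide. Tip60 replicate 3, left out of the comparison, lay above all 4 EGFP arrays for 5 of the 9 genes and below them for 3, against 21.1% and 49.8% of all genes.

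**Figure D2:**
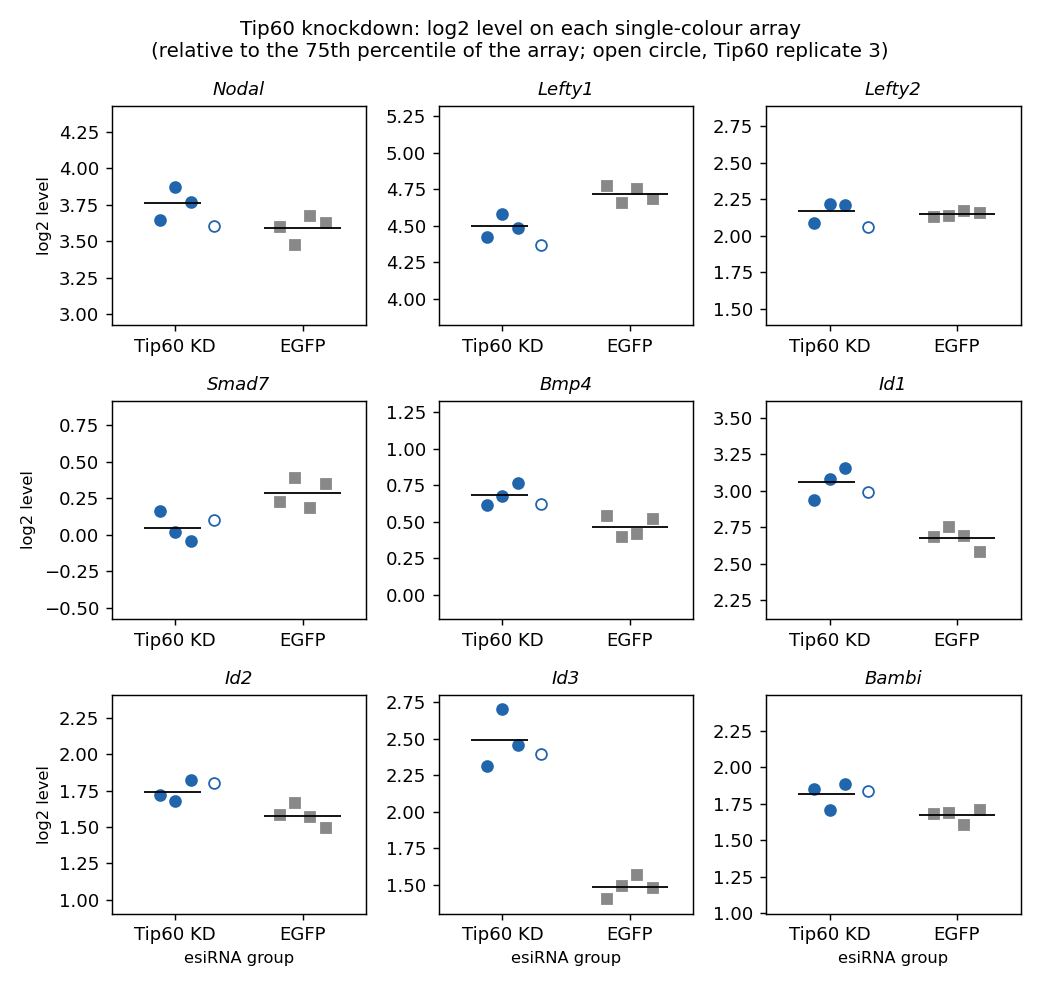
Log2 level relative to the 75th percentile of the array (vertical axis, spanning 1.5 log2 units in every panel) for Tip60 knockdown (blue circles, the open one being replicate 3, which was left out of the test) and EGFP (grey squares), with lines at the means of the arrays tested. Id3 shows the widest gap between the groups, 2.49 in Tip60 knockdown against 1.48 in EGFP, and Nodal, Lefty2 and Bambi overlap.

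The p400 effect exceeded the Tip60 effect for 5 of the 9 genes in a test of the difference itself, a test in which 4.37% of 16850 genes passed, 2.33% higher and 2.05% lower. The difference in log2 fold change, p400 minus Tip60, was 1.27 for Id1 (adjusted p = 0.0214), 1.10 for Id3 (0.0221), 0.72 for Id2 (0.0398), 0.56 for Nodal (0.0441) and 0.56 for Bambi (0.0443), from the 2 limma fits. For Lefty1 it was -0.29 (adjusted p = 0.119; 95% confidence interval -0.51 to -0.07), for Lefty2 -0.26 (0.137; -0.48 to -0.05) and for Smad7 -0.55 (0.140; -1.0 to -0.10), none of which passed. Bmp4 had log2 fold changes of 0.20 after p400 knockdown and 0.22 after Tip60 knockdown, and its difference of -0.02 had an interval of -0.30 to 0.27.
These calls were fragile. Without p400 replicate 3 none of the 9 genes and none of the 16850 passed in limma at an adjusted p under 0.05, although 3668 passed at an unadjusted p under 0.05. The number of the 9 called was 2 without p400 replicate 1 or 2, 4 without p400 replicate 4, 2, 4 and 3 without Tip60 replicates 1, 2 and 4, and 3, 4, 4 and 3 without EGFP replicates 1 to 4. With median centring of the p400 arrays in place of loess, which put the median difference of all genes at -0.22, 6 of the 9 passed, 3 higher and 3 lower. Lefty1, Lefty2 and Smad7 then passed at -0.61, -0.55 and -0.83 (adjusted p = 0.0128, 0.0135 and 0.0190, limma fits), while Nodal and Bambi, at 0.24 and 0.27, did not (adjusted p = 0.146 and 0.113). Id1 and Id3 were each called in 14 of 16 alternatives, Id2 in 11, and Nodal and Bambi in 5. The p400 effect was read on competitive arrays and the Tip60 effect on single-colour arrays, and Ep400 fell by 0.58 and Kat5 by 0.43 on the p400 arrays where Kat5 fell by 1.49 after Tip60 knockdown on the log2 scale, so the target, the array type and the depth of knockdown cannot be told apart in these differences.

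**Figure D3:**
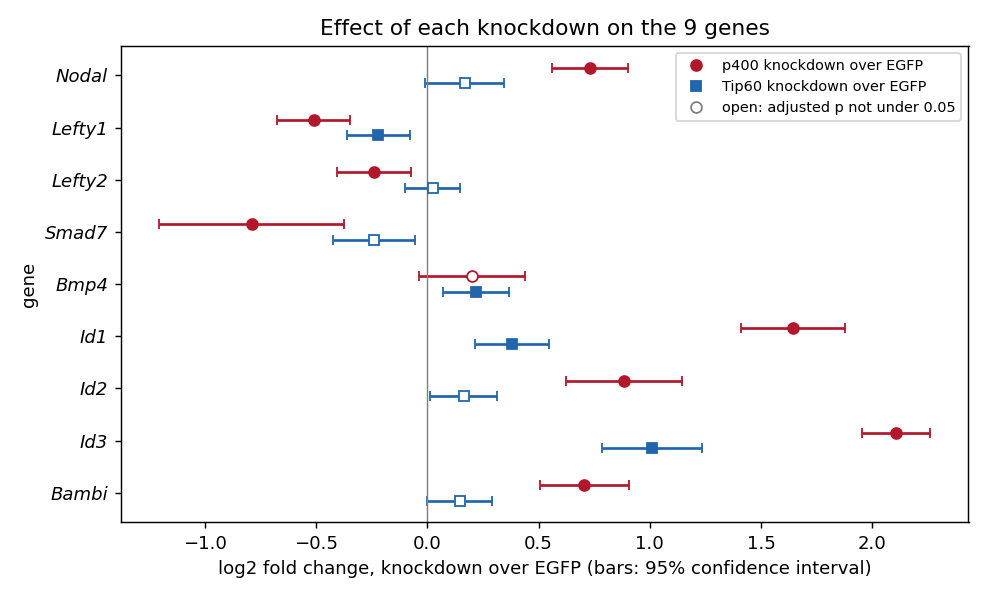
Log2 fold change over EGFP (horizontal axis) of the 9 genes (vertical axis) after p400 knockdown (red circles) and Tip60 knockdown (blue squares), with 95% confidence intervals as bars and open symbols where the adjusted p was not under 0.05. The intervals of the 2 knockdowns lie apart for Nodal, Id1, Id2, Id3 and Bambi, and Bmp4 has nearly the same value in both.

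Other genes of the pathways were read from 11 lists of 86 genes in all, which leave out the 9. After p400 knockdown 76 of the 86 were tested, 19 being higher and 12 lower, and after Tip60 knockdown 72, with 16 higher and 10 lower. Their medians of 0.04 and 0.02 were near those of all genes. The same shares over all genes were 20.1% higher and 15.0% lower after p400 knockdown and 15.3% and 10.3% after Tip60 knockdown, against which each list below is to be read. Of the 19 rises after p400 knockdown, Bmper and Cdx2 were tested only because they were well above background in the p400 channels, and none of the calls after Tip60 knockdown was of that kind.

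The BMP target genes were the list with the largest share of rises after p400 knockdown. Of the 8 tested (of 10), 7 were higher and none lower, with a median log2 fold change of 0.57. With the mean of the tested probes of a gene in place of the brightest, 6 were higher. Gata2 rose by 0.54 on the probe used, and its other probe, used in the Tip60 comparison, gave 0.09, 0.29, 0.49 and 0.12. Smad6 and Smad7 were placed with the inhibitors, not in this list. They gave -0.08 and -0.79 after p400 knockdown (adjusted p = 0.380 and 0.0166, limma), while Id1, Id2 and Id3, also outside the list, rose. Id4, the remaining Id gene, had ratios of 0.55, 0.67, 0.75 and 0.56 after p400 knockdown. The rise of 0.63 was seen on all 4 arrays (adjusted p = 0.00249, limma), against 0.09 after Tip60 knockdown (adjusted p = 0.413, limma), where the groups overlapped. The difference of 0.54 (adjusted p = 0.0456, limma fits) was the only one of 72 tested list genes to pass, and it was lost when any 1 of the 11 arrays was left out (adjusted p from 0.0514 to 0.106). Msx2 and Msx1, homeobox genes that respond to BMP in many tissues, rose by 0.87 (adjusted p = 0.00600) and 0.79 (0.00531) after p400 knockdown and by 0.73 (0.000288) and 1.42 (0.00113) after Tip60 knockdown, all by limma. In Tip60 knockdown 4 of the 8 were higher and none lower, with a median of 0.36, and the median was 0.27 within slide 2 and 0.53 within slide 3. Over the alternatives the p400 count ran between 4 and 8 and the Tip60 count between 2 and 5, and none of these genes was ever called lower.

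Among BMP receptors and transducers 3 of 7 tested were lower after p400 knockdown and 2 of 5 after Tip60 knockdown, with none higher. Over the alternatives the p400 falls ran from 0 (after scaling the arrays to a common spread) to 4, with 1 without replicate 1, 2 or 4. Rises appeared too, 2 with the series matrix or the deposited LogRatio and 1 with median centring in place of loess. The Tip60 falls ran from 0 to 2. None appeared within slide 2, with the replicate block, or with a 1.5-fold change required. There was 1 without Tip60 replicate 1 or 2 or EGFP replicate 1, 2 or 3. With no filter on dim probes, 1 fall and 1 rise appeared among 7 tested after Tip60 knockdown. Bmpr1a, a type I receptor for BMP4, had ratios of -0.58, -0.69, -1.0 and -0.90 on the p400 arrays. All were below zero, for a fall of 0.79 on the log2 scale (adjusted p = 0.00278, limma), and it fell by 0.28 after Tip60 knockdown (adjusted p = 0.0274, limma). Bmpr2, the type II receptor, fell by 0.29 after p400 knockdown and by 0.38 after Tip60 knockdown (adjusted p = 0.0268 and 0.0141, limma). Among BMP ligands 3 of 6 tested were higher after p400 knockdown and 2 of 5 after Tip60 knockdown, led in both by Bmp6, which rose by 0.99 and 0.65 (adjusted p = 0.00289 and 0.00327, limma). Bmp8a rose by 0.48 after Tip60 knockdown and Bmp1, a metalloprotease despite its name, by 0.49 after p400 knockdown (adjusted p = 0.000603 and 0.0136, limma).

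On the Nodal side, Inhbb, the activin beta-B chain, was lower in both knockdowns. Its ratios were -0.97, -1.13, -1.08 and -1.11 on the p400 arrays, a fall of 1.07 (adjusted p = 0.000536, limma), and its level was 1.13, 0.87 and 0.98 in Tip60 knockdown against 1.28, 1.67, 1.26 and 1.46 in EGFP, a fall of 0.43 (adjusted p = 0.0338, limma). The arrays agreed closely in p400 knockdown, and the Tip60 and EGFP groups did not overlap. Gdf3, a Nodal-related ligand, fell by 0.29 after p400 knockdown (adjusted p = 0.0414, limma), and Tdgf1, the Nodal co-receptor Cripto, rose by 0.38 after Tip60 knockdown (adjusted p = 0.00328, limma). Tdgf1 gave -0.78, 0.26, 0.22 and 0.13 on the p400 arrays, replicate 1 standing apart from the rest, and was not called (adjusted p = 0.864, limma).
Of the receptors and transducers, Acvr2a, a type II activin receptor, rose by 0.40 after p400 knockdown and 0.31 after Tip60 knockdown, whereas Acvr1b, a type I receptor for Nodal, fell by 0.43 and 0.35 and Smad3 by 0.43 and 0.33, all with adjusted p from limma under 0.05. Pcsk5, a proprotein convertase, rose by 0.54 and 0.58 in the 2 knockdowns (adjusted p = 0.00656 and 0.0114, limma). It was dim on the single-colour arrays, at -4.80, -4.79 and -4.68 in Tip60 knockdown against -5.40, -5.15, -5.18 and -5.61 in EGFP. Only 3 of the 4 EGFP arrays had it well above background. Furin, the convertase that cleaves Nodal and BMP precursors, fell by 0.35 after p400 knockdown (adjusted p = 0.0199, limma).

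The list of genes known as Nodal targets gave 3 rises among 7 tested after p400 knockdown and 5 among 7 after Tip60 knockdown. It had no falls, and its medians were 0.17 and 0.49. Lefty1 and Lefty2, also Nodal targets, were outside this list. Both were lower after p400 knockdown, at -0.51 and -0.24 (adjusted p = 0.00377 and 0.0399, limma). After Tip60 knockdown Lefty1 was lower at -0.22 (adjusted p = 0.0343, limma), and Lefty2 gave 0.02 (adjusted p = 0.785, limma). The endoderm factor Sox17 had ratios of 1.01, 1.19, 1.33 and 0.52 on the p400 arrays, a mean rise of 1.01 (adjusted p = 0.00315, limma). Its level was -2.05, -2.06 and -2.18 in Tip60 knockdown against -3.20, -3.34, -3.28 and -3.32 in EGFP, a rise of 1.18 with no overlap (adjusted p = 1.62e-05, limma). Foxa2, a forkhead factor of endoderm, rose by 0.68 and 0.81 (adjusted p = 0.00351 and 0.000122, limma). The list median was 0.46 within slide 2 and 0.59 within slide 3, and the Tip60 count ran between 2 and 6 over the alternatives. The p400 count ran between 2 and 4 over its alternatives. There, 1 fall appeared with median centring, the deposited LogRatio or the series matrix, or without p400 replicate 1. Cdx2 was 1 of the 3 rises after p400 knockdown, beside Sox17 and Foxa2, and 1 of the 5 after Tip60 knockdown. In the p400 comparison it was tested only through the p400 channels. Whether Cdx2 responds to Nodal in these cells was not tested. Gsc, T, Mixl1 and Cdx2 of this list and Hand1 of the BMP list also stand among the markers of other cell types below.

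Inhibitors other than the 9 went both ways. Among intracellular inhibitors, Smurf1, a ubiquitin ligase for Smads, rose by 0.35 after p400 knockdown and 0.27 after Tip60 knockdown, the co-repressor Tgif2 fell by 0.39 and 0.25, Skil fell by 0.41 after p400 knockdown and Ski by 0.27 after Tip60 knockdown, all passing by limma. In total 1 of 11 was higher and 2 lower after p400 knockdown, and 1 was higher and 3 lower after Tip60 knockdown. Among secreted antagonists, Fst, which binds activin, rose by 0.50 after p400 knockdown and Twsg1 fell by 0.36 (adjusted p = 0.00938 and 0.0180, limma). Bmper gave 0.49 (adjusted p = 0.00965, limma), but was well above background on 4 p400 and 2 EGFP channels, and so entered the test only through the channels where it was higher. With Bmper the antagonists had 3 higher and 1 lower of 9 tested, while none of 8 passed after Tip60 knockdown. Of the TGF-β list, Ltbp3 fell by 0.45 after p400 knockdown and Tgfb1 rose by 0.56 after Tip60 knockdown (adjusted p = 0.0296 and 0.0228, limma). The E proteins that Id proteins bind were lower after Tip60 knockdown for 2 of 3, Tcf4 by 0.39 and Tcf3 by 0.28 (adjusted p = 0.00482 and 0.00476, limma), and none of the 3 passed after p400 knockdown.

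**Figure D4:**
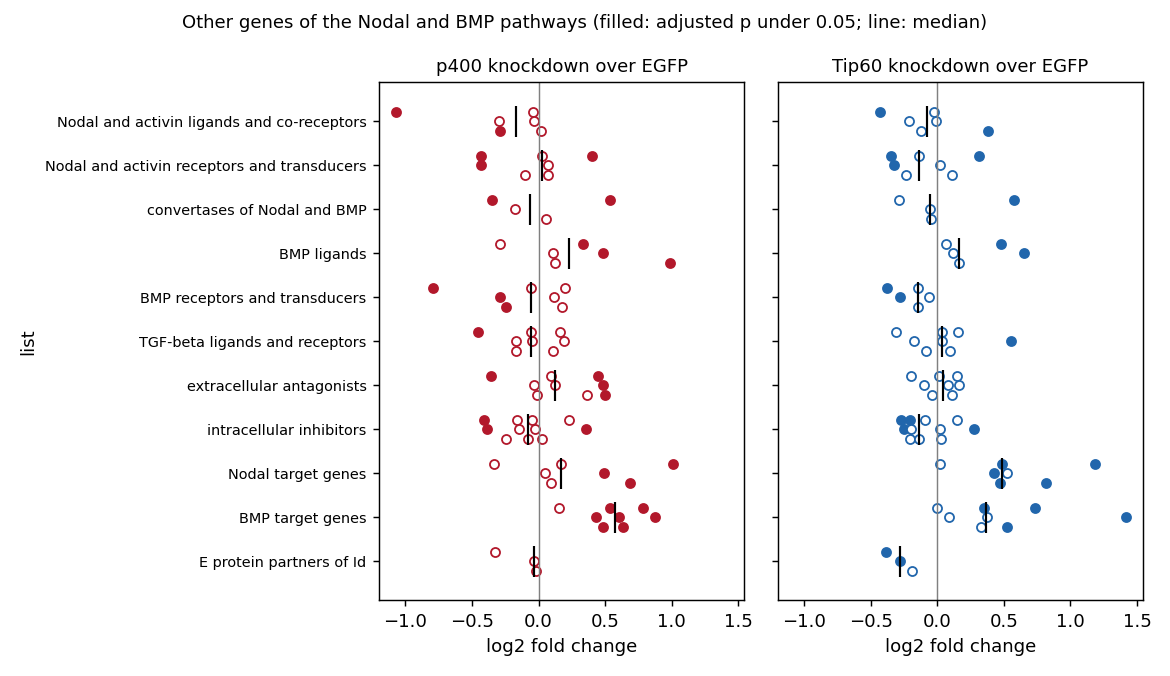
Log2 fold change over EGFP (horizontal axis) of the other pathway genes by list (vertical axis), p400 knockdown at the left and Tip60 knockdown at the right, with filled circles for genes at an adjusted p under 0.05 and a line at the median of each list. The BMP target genes lie above zero in both panels, with medians of 0.57 after p400 knockdown and 0.36 after Tip60 knockdown.

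Markers of other cell types moved in the same arrays. The counts of calls below stand beside the shares over all genes. These were 20.1% higher and 15.0% lower after p400 knockdown, and 15.3% and 10.3% after Tip60 knockdown. The summed level of 5 tested feeder fibroblast genes ran from 3816 to 4423 in p400 knockdown channels and from 1691 to 2293 in EGFP channels, and from 4.43 to 4.66 in Tip60 knockdown and 2.98 to 3.19 in EGFP on the single-colour scale. Of the 5, 4 were higher after p400 knockdown and 2 after Tip60 knockdown, led by Thy1 (1.43 and 1.25). Without Thy1, a choice made after seeing the data, the sums still lay apart in p400 knockdown (1252 to 1476, against 853 to 1004 in EGFP channels) but overlapped in Tip60 knockdown (1.59 to 1.88, against 1.83 to 1.96 in EGFP), where the collagens Col1a1, Col1a2 and Col3a1 gave -0.11, -0.16 and 0.07. Of the same list Postn, Lum and Dcn were not above background often enough to be tested. Summed primitive endoderm markers overlapped between p400 knockdown (1700 to 3095) and EGFP channels (1389 to 1996), 3 of 6 being higher, and trophectoderm markers ran from 20630 to 22963 in p400 knockdown and from 15255 to 16167 in EGFP channels, with 4 of 6 higher and 1 lower. Without Krt18, the brightest of them and likewise chosen afterwards, the trophectoderm sum was lower in p400 knockdown (5250 to 5610, against 6220 to 7540 in EGFP channels), and Tfap2c of this list fell by 0.69 after p400 knockdown and 0.56 after Tip60 knockdown (adjusted p = 0.00533 and 0.00104, limma). Of the 4 trophectoderm markers that were higher, Cdx2 was well above background on 4 p400 and 2 EGFP channels. Cdx2 was thus tested only through the channels where it was higher. In Tip60 knockdown 4 of 5 primitive endoderm markers were higher, with overlapping sums (1.33 to 1.52, against 1.23 to 1.37 in EGFP), and 3 of 5 markers of primitive streak and mesoderm were higher, with sums of 0.41 to 0.43 in Tip60 knockdown and 0.23 to 0.31 in EGFP. Among these 3, Evx1 was well above background on 3 Tip60 and 1 EGFP arrays. Evx1 was thus tested only through the group where it was higher. After p400 knockdown the streak and mesoderm sums overlapped (728 to 801, against 671 to 746 in EGFP channels), with 1 of 5 higher. Trophectoderm sums overlapped in Tip60 knockdown (56.1 to 60.1, against 48.9 to 60.0 in EGFP), with 1 of 6 higher and 1 lower. Neural ectoderm sums were lower in Tip60 knockdown (2.53 to 2.68, against 2.89 to 2.99 in EGFP), with 1 of 4 lower, and overlapped in p400 knockdown (1747 to 2103, against 1681 to 1961 in EGFP channels), with 1 of 5 higher and 1 lower. In Tip60 knockdown Nes, the brightest of this list and the largest part of its sum, gave -0.19 and was not called (adjusted p = 0.0630, limma). The gene called lower there was Pax6, at -0.30 (adjusted p = 0.0128, limma). Several of these cell types are known to express Id genes, and the part of these markers in the changes of Id1, Id2, Id3 and the lists was not tested.

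As a description of which genes followed the members, Pearson's r was taken over 11 arrays (4 p400 ratios, and 3 Tip60 and 4 EGFP levels relative to the EGFP mean) for 16689 genes. The nearest to Id3 were Abt1, Atpsckmt and Gtsf1 (r = 0.990, 0.987 and 0.987), to Id1 Slc16a6, Snx5 and Ung (0.984, 0.983 and 0.982), and to Nodal Rangap1, Ttc39b and Stimate (0.988, 0.981 and 0.979). The nearest to Lefty1 were Anxa4, Polg2 and Snhg20 (0.979, 0.976 and 0.974), and to Smad7 Tspan14, Mroh1 and Zkscan5 (0.991, 0.974 and 0.973). Bmp4 had the loosest partners, Tmem141, Ptges and Bod1 (0.880, 0.867 and 0.860). The points fall into the 3 groups of the study and share their arrays, so they are not independent and no test was made.

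**Figure D5:**
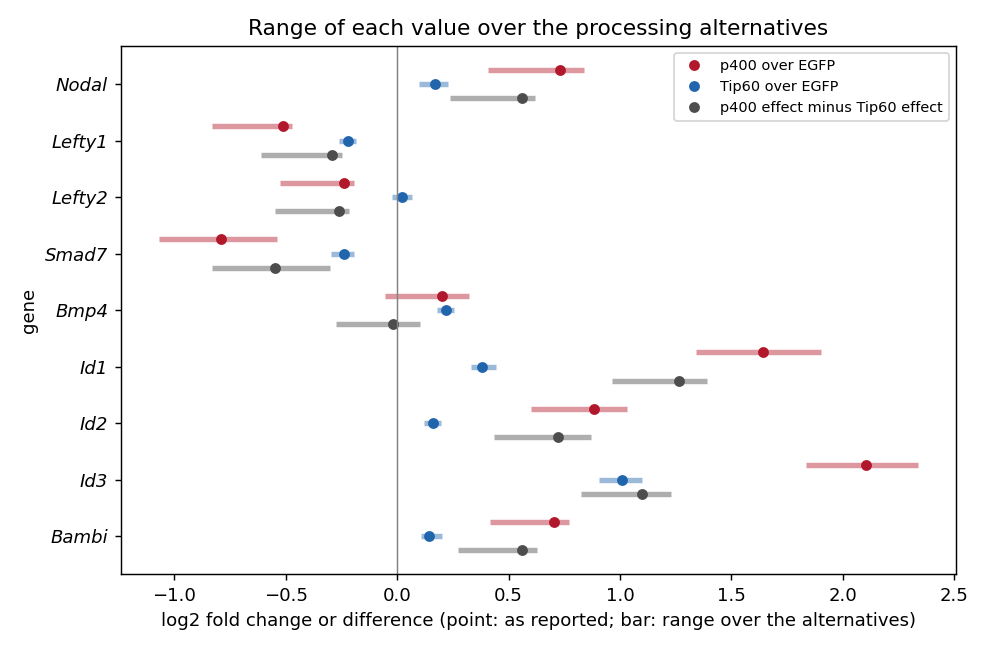
Value of each gene (vertical axis) as a log2 fold change over EGFP after p400 knockdown (red) or Tip60 knockdown (blue), or as the difference between the 2 (grey), on the horizontal axis, with a point for the value reported and a bar for its range over the processing alternatives. Id1, Id2, Id3, Nodal and Bambi stay above zero and Lefty1 and Smad7 below it in all 3 comparisons, and bars cross zero for Bmp4 after p400 knockdown and in the difference and for Lefty2 after Tip60 knockdown.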

How the data were processed

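RNA of mouse E14 ES cells was hybridised to Agilent arrays, 4 two-colour (p400 knockdown against EGFP) and 8 single-colour (Tip60 knockdown or EGFP). Per the file headers, Feature Extraction 9.5.1.1 gave mean and background intensity per spot, a processed intensity after background subtraction and detrending, and flags of 0 or 1. The deposited LogRatio is the log10 of red over green processed signal, per the file headers. The series matrix deposited with them is on a log2 scale, and how it was normalized is not given in the sources used here. Its p400 columns follow the LogRatio of the same array with the sign of the dye order, and its single-colour columns follow the median signal.

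From these, p400 log2 ratios were computed with normexp (offset 50), loess with control spots at weight 0, and a dye term. Tip60 and EGFP levels were log2 processed signal minus the 75th percentile of the array. Testing required a probe to stand well above background on 3 or more arrays of either RNA, and the brightest such probe represented its gene. Tests used limma 3.58.1 in R 4.3.3 (lmFit, eBayes, two-sided) with Benjamini-Hochberg adjustment over all genes tested and a threshold of 0.05. The difference between knockdowns was tested against the combined standard error of both fits, on whichever degrees of freedom were smaller, and takes the EGFP samples of the 2 experiments as separate. The tests of p400 and of Tip60 knockdown over EGFP were checked on simulated data with independent noise on each array. That check did not include the test of the difference. Confidence intervals are 95% and unadjusted. Probe names were updated through RefSeq accessions (22951 probes), symbols (6659) or synonyms (3109), and 8455 kept the name in the file. The number of arrays limits precision.

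The genes and lists were chosen with earlier results of these data known. Outside the 9 genes, Ep400 and Kat5, the text names up to 2 rises and 2 falls per list and knockdown among genes that passed, the 3 genes of highest r per member (given for 6 members), and Id4 and some markers, which were chosen after their values were seen. Replicates are biological replicates per the labels. No block was used in the main results. Whether the numbers pair the Tip60 and EGFP samples could not be told, because same-numbered arrays lay on different slides.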

Additional observations from a re-analysis of the deposited data

Results flagged for a closer look

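Of 18 groups of 4 values examined for a sample far from the others, 1 stood out, and chance marks about 1 group in 20. It was Lefty1 in p400 knockdown, where replicate 4 had a log2 ratio of -0.386 while replicates 1 to 3 lay between -0.56 and -0.54. Without replicate 4 Lefty1 was still called lower after p400 knockdown.

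Tip60 replicate 3, which the submitters left out and the comparisons above do not use, was above every EGFP array for 5 of the 9 genes and below every one for 3, where 21.1% and 49.8% of all genes were so placed. Its log2 levels were 0.620 for Bmp4, 2.99 for Id1, 1.80 for Id2, 2.39 for Id3 and 1.84 for Bambi, where the highest EGFP arrays had 0.54, 2.75, 1.67, 1.57 and 1.71. It was below for Lefty1 (4.37), Lefty2 (2.06) and Smad7 (0.10), where the lowest EGFP arrays had 4.65, 2.13 and 0.18. This array had 22188 of 43379 spots well above background, the fewest of all.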

How the results depend on the processing

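Over 450 recomputed values of the 9 genes, 361 kept their direction and side of the threshold, 69 lost a call, 11 gained one and 9 turned. The turned values were near zero: Bmp4 after p400 knockdown gave -0.0549 with median centring in place of loess. Lefty2 after Tip60 knockdown gave -0.00186 with normexp and quantile normalization, -7.53e-16 with the series matrix, -0.00436 with replicate 3 included and -0.0223 with replicate 3 and array weights. The Bmp4 difference gave 0.0356 and 0.103 without p400 replicates 2 and 3, 0.0230 without Tip60 replicate 4 and 0.00598 without EGFP replicate 2, and ran from -0.138 to 0.103 over all arrays left out. In p400 knockdown 3 of the 9 genes and 3066 of all genes (2243 higher and 823 lower) were called after scaling the arrays to a common spread, and 1775 genes with a 1.5-fold change required, while 6 to 8 of the 9 and 3134 (without replicate 2) to 5748 genes were called when 1 array was left out. Median centring of the p400 arrays moved the median of all genes to -0.11 and the calls to 2881 higher and 6784 lower, against 3765 and 2811, and it also gave 4066 genes in the difference, 409 higher and 3657 lower. In Tip60 knockdown, 2 of the 9 genes and 1865 of all genes were called within slide 2, 2 of the 9 with no filter on dim probes, and 1 of the 9 and 1420 of all with a 1.5-fold change required, while leaving out 1 array gave 2 to 3 of the 9 and 3146 to 3696 genes. With Tip60 replicate 3 included, 5 of the 9 and 4516 genes were called. Array weights besides gave 6 of the 9 and 5243 genes. Id2 and Bambi each gained a call in 1 of 20 Tip60 alternatives (lowest adjusted p = 0.0327 and 0.0312, limma). In the difference, 2431 genes were called with Welch-Satterthwaite degrees of freedom and 1554 with the series matrix, and leaving out 1 array gave 0 to 4 of the 9 and 0 to 694 genes. An alternative chosen after seeing the data, the spread estimated over all tested probes, called the same number of the 9 in both knockdowns (8 and 4), with 6702 and 4211 genes in all. Same-numbered Tip60 and EGFP arrays deviated apart (r = -0.29, -0.38 and -0.12), but every such pair lay on different slides. These values therefore cannot tell whether the numbers pair the samples. The replicate block called 1 of the 9 and 1864 genes in Tip60 knockdown, and 0 of the 9 and 0 genes in the difference (3332 at an unadjusted p under 0.05). The cause of these shifts was not tested. The number of arrays limits the precision, and Smad7 had the largest standard error of the 9 after p400 knockdown.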
